A study of Rattus norvegicus with 8 samples.

Results

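The cell cycle genes described here were 42 genes listed by symbol, of which 41 occurred among the 32623 genes of the deposited matrices. Ccnb2 was not among them, so its expression was not analysed here. The 41 comprised 25 genes of the G2 phase and mitosis (G2/M genes), 15 genes of DNA replication (S genes) and Stmn1, a microtubule destabilizer found in many dividing and developing cells. They were chosen by name and not by a threshold on these counts, and they were read as raw unique molecular identifiers (UMIs) in all 8 libraries, to ask which cell types of the injured rat spinal cord cycled, how S genes compared with G2/M genes, and whether either depended on drop height. Female Wistar rats aged 8 weeks had the thoracic cord exposed by laminectomy at T9. Sham animals had laminectomy alone. In the injured groups, called mild, moderate and severe, a 10 g weight was then dropped on the cord, from 25 mm in the moderate and 50 mm in the severe group and from a height 2 times lower than the moderate one in the mild group. Tissue around the lesion was taken 7 days after surgery, dissociated, and profiled as single cells with droplet-based 3′ chemistry, with 2 libraries a group (sham 1 and 2, and so on). Per the study's methods, surgery was done under pentobarbital, and buprenorphine and cefazolin were given afterwards. The labels name the libraries as separate samples without saying how many animals entered each, while the study's text speaks of as many cords as libraries. P-values against sham and for drop height within 1 type measure the spread between these libraries. Where library was a block, they measure how a difference within a library varied from library to library.

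A dividing cell copies its DNA in S phase and separates the copies in mitosis. The Mcm2 to Mcm7 proteins form the ring-shaped helicase that Cdc6 helps to load at replication origins, Cdc45 and Gins2 switch that helicase on, Pcna is the sliding clamp of the replication fork, and Rrm1, Rrm2, Tyms and Tk1 supply nucleotides. Cyclins A and B with the kinase Cdk1 and its small subunit Cks2 drive entry into mitosis, Plk1, Aurka and Tpx2 build the spindle, Birc5 and Aurkb belong to the chromosomal passenger complex, and Cdc20 and Ube2c act with the anaphase-promoting complex that ends mitosis. In the spinal cord, oligodendrocyte precursors are known to divide in the adult and after injury, microglia divide after injury, and neutrophils and mature oligodendrocytes are cells that have left the cycle.

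The promoters of S and G2/M genes differ in the letters they carry. Promoters of G2/M genes often hold CCAAT boxes and the cell cycle homology region, and those of S genes sites for E2F factors. In RefSeq's GRCr8 assembly, a later one than the Rnor_6.0 build behind the counts, 35 listed genes, Ccnb2 included, had an entry, 22 of them G2/M and 12 S genes. The 250 bases before the start were searched on both strands for TTTGAA, which reads TTCAAA on the other strand, as the homology region, for CCAAT, which reads ATTGG there, as the CCAAT box, and TTTCCCGC, TTTCGCGC, TTTGCCGC or TTTGGCGC and their reverses as E2F-type letters, and the letters of 1 motif contain none of the others. Top2a and Cdc20 are printed as G2/M genes that rose in oligodendrocyte precursors. Cks2 is printed as the only G2/M gene called in macrophages/microglia, against sham or by drop height. Mcm3, Mcm5 and Mcm6 are printed as S genes whose levels fell with drop height in macrophages/microglia, as did Cdc6, which is named only. Capitals mark the motifs.
Top2a (chr10:84473094-84473343, - strand): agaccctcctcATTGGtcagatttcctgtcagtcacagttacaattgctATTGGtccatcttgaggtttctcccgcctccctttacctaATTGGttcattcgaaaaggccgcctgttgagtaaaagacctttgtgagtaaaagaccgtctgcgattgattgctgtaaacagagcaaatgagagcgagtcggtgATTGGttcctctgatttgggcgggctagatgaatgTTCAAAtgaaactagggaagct
Cdc20 (chr5:137255800-137256049, - strand): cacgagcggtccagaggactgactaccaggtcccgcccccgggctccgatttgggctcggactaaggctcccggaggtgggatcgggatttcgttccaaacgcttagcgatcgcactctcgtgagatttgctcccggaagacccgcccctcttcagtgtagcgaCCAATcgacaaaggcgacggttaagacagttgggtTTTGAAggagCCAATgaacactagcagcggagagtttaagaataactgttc
Cks2 (chr17:13727520-13727769, - strand): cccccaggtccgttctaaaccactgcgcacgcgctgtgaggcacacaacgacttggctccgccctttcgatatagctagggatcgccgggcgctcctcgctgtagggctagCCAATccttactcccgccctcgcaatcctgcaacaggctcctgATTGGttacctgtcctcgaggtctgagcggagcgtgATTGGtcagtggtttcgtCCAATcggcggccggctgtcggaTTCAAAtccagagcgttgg
Mcm3 (chr9:30733747-30733996, - strand): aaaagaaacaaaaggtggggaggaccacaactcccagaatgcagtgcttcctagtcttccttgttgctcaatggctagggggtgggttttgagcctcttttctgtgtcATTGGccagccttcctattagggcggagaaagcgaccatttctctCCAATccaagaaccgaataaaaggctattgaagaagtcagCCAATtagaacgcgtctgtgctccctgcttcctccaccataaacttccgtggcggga
Mcm5 (chr19:13488563-13488812, + strand): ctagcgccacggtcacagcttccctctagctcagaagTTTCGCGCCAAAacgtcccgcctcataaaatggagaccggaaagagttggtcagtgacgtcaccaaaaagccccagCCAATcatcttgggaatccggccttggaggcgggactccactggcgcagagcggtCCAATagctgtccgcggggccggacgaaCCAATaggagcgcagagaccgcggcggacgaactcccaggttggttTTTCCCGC
Mcm6 (chr13:42404353-42404602, - strand): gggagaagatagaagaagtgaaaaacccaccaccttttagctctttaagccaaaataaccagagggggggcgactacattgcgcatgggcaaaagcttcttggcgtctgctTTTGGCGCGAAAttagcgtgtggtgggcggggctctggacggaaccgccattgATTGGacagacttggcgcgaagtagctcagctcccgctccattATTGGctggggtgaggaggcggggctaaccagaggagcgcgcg
The Top2a, Cdc20 and Cks2 windows each held 1 homology region, with 4, 2 and 4 CCAAT boxes. The Mcm3 window held no homology region, 3 CCAAT boxes and no E2F-type match, the Mcm5 window no homology region, 3 CCAAT boxes and 3 E2F-type matches, and the Mcm6 window no homology region, 2 CCAAT boxes and 2 E2F-type matches. TTTGAA occurred in 13 of 22 G2/M promoters (59.1%) and 1 of 12 S promoters (8.33%), beside 16.2% of all 33469 promoters. CCAAT occurred in 19 of 22 G2/M promoters (86.4%) and 9 of 12 S promoters (75.0%), beside 34.0% of all, and E2F-type letters in 1 of 22 and 5 of 12, beside 1.73% of all. Matches on opposite strands that share bases were counted separately, and all are matches of letters and not sites of binding.

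The matrices held 68658 barcodes, of which 55449 were kept after filters on mitochondrial share, doublets and outlying UMI or gene numbers, high or low. There were 2337 to 10009 cells a library, with a median of 2745 to 10814 UMIs a cell. The number of kept barcodes that occurred in more than 1 library was 346, with 2 to 24 shared by a pair of libraries. Cell types were named from fixed markers on clusters formed without the listed cell cycle genes. The sham libraries stood apart from the injured ones and from each other, since 4823 of 9192 cells in sham 1 were neutrophils and 1958 of 2337 in sham 2 were macrophages/microglia. Results that rest on them are therefore given with and without each. The name macrophages/microglia (26302 cells) covers resident microglia and infiltrating macrophages.

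Oligodendrocyte precursors held the largest share of cycling cells of the 11 named types. A cell was called G2/M-positive when at least 3 of the 25 G2/M genes had a UMI after each cell was thinned at random to 1000 UMIs, a step that sets all cells to the same depth. By this count 1072 of 4084 precursors (26.2%) were positive, beside 120 of 773 astrocytes (15.5%), 224 of 2156 fibroblasts (10.4%) and 2264 of 26281 macrophages/microglia (8.61%). Macrophages/microglia, the most abundant cells, gave 56.7% of the 3990 positive cells, and precursors gave 26.9% from 8.2% of the cells used. Endothelial cells (1.22%), T cells/NK cells (0.825%), dendritic cells (0.639%), mature oligodendrocytes (0.308%), B cells (0.204%), erythroid cells (0.0905%) and neutrophils (0.0731%) had few positive cells. Over libraries with at least 20 cells of a type, the share was 21.4% ± 8.93 (SD, n = 8) in precursors, 15% ± 5.95 (n = 7) in astrocytes, 10.5% ± 7.93 (n = 8) in fibroblasts and 7.43% ± 2.76 (n = 8) in macrophages/microglia. Precursors were above macrophages/microglia in 8 of 8 libraries, by 14 ± 8.01 percentage points, above fibroblasts in 8 of 8 and above astrocytes in 6 of 7. Astrocytes were above macrophages/microglia in 7 of 7 libraries, whereas fibroblasts were above them in 4 of 8 and were not distinguished from them. These shares come from a per-cell score and were compared by libraries, with no test.

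**Figure D1:**
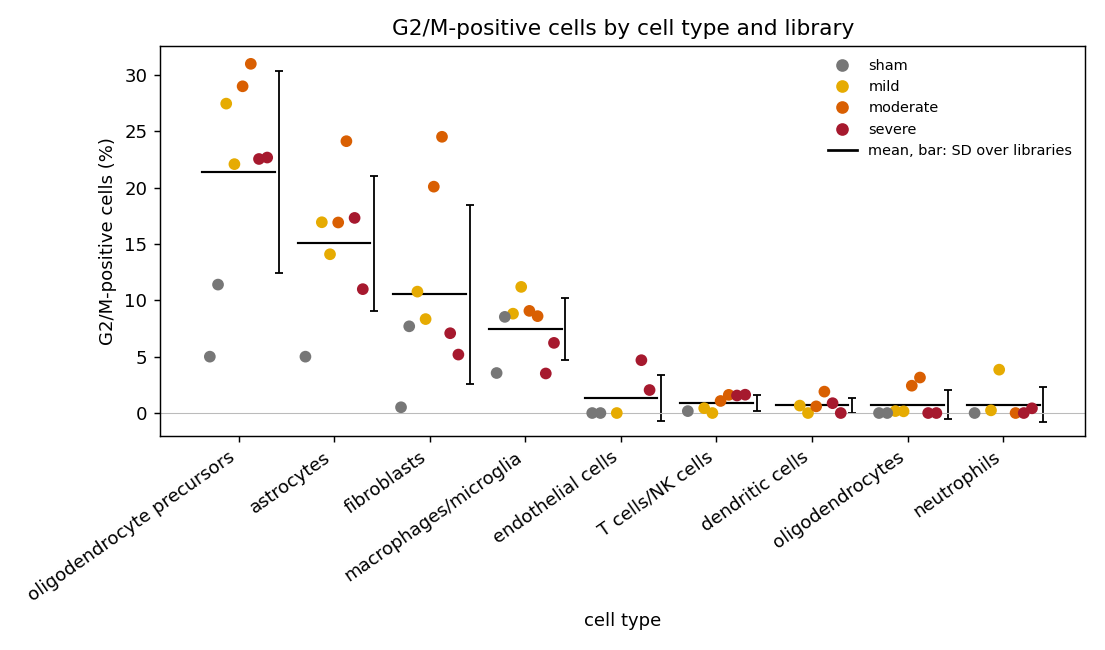
Share of G2/M-positive cells (percent of cells with at least 1000 UMIs, thinned to 1000) for 9 cell types, 1 point a library coloured by group (y axis), with the mean as a line and the SD over libraries as a bar. Oligodendrocyte precursors had the highest mean, 21.4%, and neutrophils and mature oligodendrocytes lay near 0 in most libraries.

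In precursors the share was 5.0% and 11.4% in sham 1 and 2, 27.4% and 22.1% in mild 1 and 2, 29.0% and 31.0% in moderate 1 and 2, and 22.5% and 22.7% in severe 1 and 2. All 6 injured libraries were above both sham libraries, and the moderate pair was highest. The limits on UMIs and genes were set in each library, and 62.0% of precursors above them were positive. Without these limits the lowest share of any library was 9.47% and the highest 32.7%. In macrophages/microglia the share was 3.55% and 8.53% in sham 1 and 2, 8.81% and 11.2% in mild 1 and 2, 9.06% and 8.59% in moderate 1 and 2, and 3.51% and 6.22% in severe 1 and 2. Here the severe libraries overlapped with the sham libraries and lay below the other injured ones. An unnamed low-UMI cluster, described below, was left out of this type. It held 1069 cells of severe 2, 360 of sham 1 and 27 to 155 of the other libraries. In fibroblasts the share was 0.512% and 7.69% in sham, 10.8% and 8.33% in mild, 20.1% and 24.5% in moderate, and 7.08% and 5.19% in severe, so that the moderate pair stood above every other library. The sham values rest on 2 of 391 and 2 of 26 fibroblasts. Astrocytes lay at 5.0% (1 of 20 cells) in sham 1 and between 11% and 24.1% in the injured libraries. Mature oligodendrocytes were at 2.42% and 3.15% in the moderate libraries with 168 and 129 of these cells, and at 0.173% and 0.15% in the mild ones. None was positive in the sham and severe libraries, where a count of 0 allows a share of up to 0.280% in sham 1 and up to 6.98% in the smallest library, sham 2.

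The thinned shares understate how many cells carry G2/M transcripts and the unthinned ones follow depth. Without thinning, 56.9% of precursors, 38.7% of astrocytes, 32.2% of macrophages/microglia and 29.2% of fibroblasts had UMIs of at least 3 G2/M genes, beside 4.94% of mature oligodendrocytes and 0.200% of neutrophils, cells that should lack them. The median was 10856 UMIs in precursors, 11220.5 in macrophages/microglia, 11087.5 in mature oligodendrocytes and 1411 in neutrophils, so mature oligodendrocytes give the background at a like depth. Thinning left out 5654 cells below 1000 UMIs, 3681 of them neutrophils, 21 of them macrophages/microglia and 4 precursors. Near the limit, 1027 macrophages/microglia had 2 G2/M genes, 573 had 3 and 1691 had 4 or more, and among precursors these numbers were 302, 231 and 841. Positive cells were deeper than the others before thinning, with a median of 15205.5 against 10846 UMIs in macrophages/microglia and 14161.5 against 9837.5 in precursors.

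The single genes differed in how well they kept to the cycling types. Mki67, whose protein coats mitotic chromosomes, had a UMI in 13.1% of thinned precursors and 6.97% of macrophages/microglia, beside 0.448% of mature oligodendrocytes and 0.497% of neutrophils. Top2a, which untangles sister chromatids, had one in 12.3% of precursors and 3.83% of macrophages/microglia against 0.196% of mature oligodendrocytes, and Cdk1 in 9.84% and 2.10% against 0.140%. Cks2 did not separate the types in this way, with 10.8% of precursors, 7.96% of macrophages/microglia, 9.02% of T cells/NK cells and 6.21% of neutrophils. Of the types counted here only mature oligodendrocytes were low, at 0.336%. Pcna likewise had a UMI in 17% of precursors, 9.31% of macrophages/microglia, 11% of neutrophils and 9.76% of mature oligodendrocytes. Stmn1 was found in 65.7% of precursors and 78.4% of mature oligodendrocytes but 15.6% of macrophages/microglia, so that it did not order these types as the positive share did. Its level was 2557 ± 1056 CPM (SD, n = 8, a type's UMIs of the gene scaled to a fixed total) in mature oligodendrocytes, 1611 ± 572 (n = 8) in precursors, 1338 ± 277 (n = 7) in astrocytes, 507 ± 138 (n = 5) in endothelial cells and 221 ± 93.0 (n = 8) in macrophages/microglia.

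Macrophages/microglia held their cycling cells in a few clusters. The listed cell cycle genes were left out of the clustering, but other genes of dividing cells were not removed. Hist1h2an and Hist1h1b were among the leading genes of cluster 8, and Cdkn3 among those of cluster 18. The gathering of positive cells in clusters is therefore not independent of cell cycle genes. One cluster held 68.9% of the positive macrophages/microglia, and 64.8% of its cells were positive. A smaller cluster held a further 13.5% (43.9% of its cells). The clusters numbered 1, 4 and 7 had 0.339%, 0.0206% and 0.103% positive cells among 6188, 4845 and 2917 cells used. The clusters were shared out unequally over the groups. Cluster 10 held 41.2% and 76.4% of the macrophages/microglia of sham 1 and 2 and at most 0.902% in any injured library. Cluster 4 held 58.0% and 35.8% in mild 1 and 2 and 34.6% in sham 1, cluster 1 held 47.4% and 54.8% in moderate 1 and 2, and cluster 0 held 35.3% and 24.6% there and 18.9% and 39.1% in mild. Cluster 7 held 80.3% and 63.4% in severe 1 and 2 and cluster 13 a further 14.9% and 33.0%, with 15% of its cells positive. The most positive cluster, numbered 8, held 8.74% to 15.3% of the macrophages/microglia in the mild and moderate libraries, 6.60% and 8.53% in sham, and 0.184% and 0.0933% in severe 1 and 2. Precursors formed a single cluster.

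Summed UMIs of each type and library, as CPM (a gene's share of the type's UMIs in that library, scaled to a fixed total), gave the same leading type. These 3′ UMI counts were not divided by gene length. The G2/M sum was 2378 ± 1101 CPM (SD, n = 8) in precursors, 1518 ± 457 (n = 7) in astrocytes, 982 ± 597 (n = 8) in fibroblasts and 887 ± 264 (n = 8) in macrophages/microglia, against 157 ± 178 (n = 8) in mature oligodendrocytes and 269 ± 122 (n = 7) in neutrophils. The S sum was 921 ± 373 CPM in precursors, 726 ± 172 in astrocytes, 462 ± 201 in fibroblasts and 428 ± 137 in macrophages/microglia, against 224 ± 45.6 in mature oligodendrocytes and 307 ± 181 in neutrophils. S genes thus covered a narrower range over the types than G2/M genes did. The ratio of S to G2/M sums was 0.425 ± 0.124 in precursors, 0.495 ± 0.119 in astrocytes, 0.546 ± 0.363 in macrophages/microglia and 0.663 ± 0.543 in fibroblasts. Sham 1 set the wide spread of the last 2 types, at 1.42 in macrophages/microglia and 1.97 in fibroblasts, and without it their means were 0.42 and 0.477. The SDs of these 4 types overlapped. Within libraries the ratio in precursors was below that of astrocytes in every injured library and above it in sham 1 (0.714 against 0.523). It was below that of fibroblasts in all libraries but severe 1, and below that of macrophages/microglia in all but severe 2 and sham 2. These differences within libraries were not tested. The sums run over lists of different length, so a ratio can be set against that of another type. It does not measure how many cells were in each phase. In mature oligodendrocytes the ratio was 2.98 ± 2.21 and in neutrophils 1.16 ± 0.425.

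**Figure D2:**
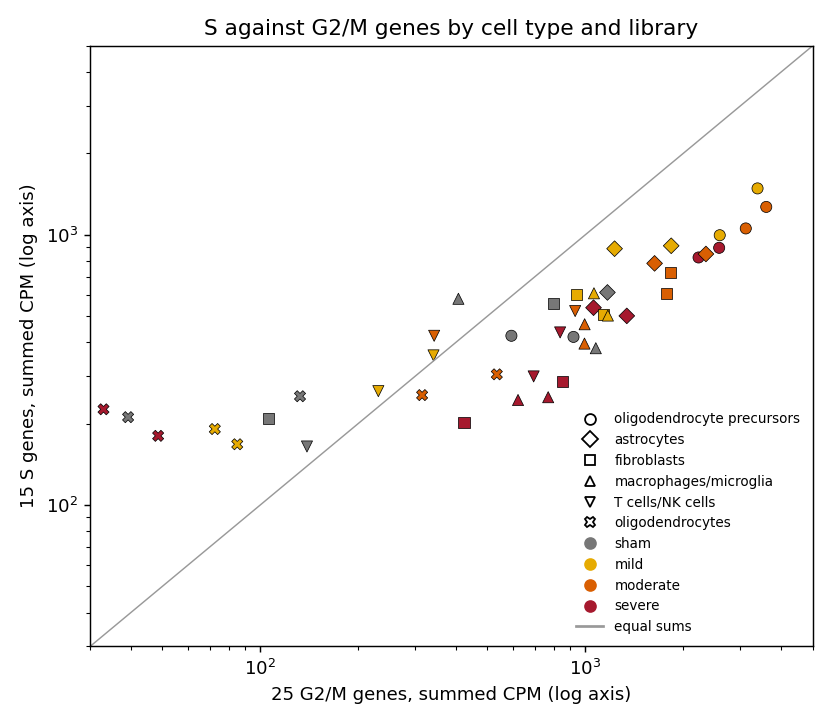
Summed CPM of the 15 S genes against summed CPM of the 25 G2/M genes, both on log axes, for 6 cell types (marker shape) and the libraries with at least 20 cells (colour by group), with a line where both sums are equal. Precursors and astrocytes lie below the line in every library, macrophages/microglia and fibroblasts in all but sham 1, and most points of mature oligodendrocytes lie above it. The lists differ in length, so the line does not mark equal numbers of cells in the phases.

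Single genes made up much of some sums. Pcna, which also serves DNA repair, gave 54.5% of the S sum in mature oligodendrocytes and 70.9% in neutrophils, but 20.4% in precursors and 27.3% in macrophages/microglia. Cks2 gave 43.9% of the G2/M sum in T cells/NK cells, 47.6% in dendritic cells, 42.2% in neutrophils and 74.2% in B cells, but 12% in macrophages/microglia. In precursors the leading G2/M gene was Cenpf, a kinetochore protein, with 10.3%. S-positive cells, with at least 3 of the 15 S genes after thinning, were rarer than G2/M-positive ones: 380 precursors (9.30%), 32 astrocytes (4.14%), 545 macrophages/microglia (2.07%) and 41 fibroblasts (1.90%), beside 0.0292% of neutrophils and 0.140% of mature oligodendrocytes. Among precursors 905 cells were positive for G2/M alone, 213 for S alone and 167 for both, and among macrophages/microglia 2120, 401 and 144. The S list is shorter than the G2/M list, and its mean sum was lower in precursors, astrocytes, macrophages/microglia and fibroblasts. The same cut of 3 genes was therefore harder to meet for S genes. These counts do not compare how many cells were in S phase and in G2 phase or mitosis.

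Each type was then set against macrophages/microglia, gene by gene, on UMI counts summed per type and library, with edgeR's quasi-likelihood test, library as a block and Benjamini-Hochberg adjustment over all 12637 genes tested. In precursors 17 of the 41 genes were higher than in macrophages/microglia, where 31.5% of all genes were, and 1, Aurka, was lower. The 17 were 11 of the 25 G2/M genes, 5 of the 15 S genes and Stmn1. The S count is near the share over all genes, and an excess of the 17 over that share was not tested. The roles named next hold too few genes to be set apart from it. Among the G2/M genes the motor and spindle proteins Prc1, Kif11, Kif23 and Hmmr were higher (4 of 6 in that role), as were Cenpf, Cenpe, Spc25 and Bub1 of the kinetochore (4 of 6). Cdc20 had the largest difference of the G2/M genes, with a log2 fold change of 1.68 (SE 0.29, edgeR adjusted p = 7.1e-07), ahead of Prc1 at 1.51 (SE 0.37, edgeR adjusted p = 0.00024). Of the S genes Cdc6 differed most, by 1.49 (SE 0.27, edgeR adjusted p = 2.2e-06), and Mcm7, Mcm4, Cdc45 and Rrm2 were also higher. Stmn1 differed by 2.12 (SE 0.29, edgeR adjusted p = 1.3e-09). Mki67 was not called, at -0.08 (SE 0.34, edgeR adjusted p = 0.85), and Aurka differed by -0.87 (SE 0.27, edgeR adjusted p = 0.0035). The sham libraries weighed on these counts, which rose to 32 genes without sham 1 and to 32 without sham 2. The median over all genes was -0.09 with the scaling used (TMM) and 0.67 with library size alone, beside 0.54 and 1.30 for the 41 genes. With library size alone 38 of the 41 were called higher. The shares of all genes called higher in these alternatives are not reported here, so 32 and 38 are not set against them.

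Mature oligodendrocytes were lower than macrophages/microglia in 38 of the 41 genes (38.4% of all genes were lower), all 25 G2/M genes among them, with Stmn1 higher by 3.17 (SE 0.30, edgeR adjusted p = 6e-15) and Pcna and Gins2 not called. T cells/NK cells were lower in 27 of 41 (30.1% of all genes), 21 of them G2/M genes, and higher in Mcm7 alone. Cks2 was among those not called in T cells/NK cells, at 0.52 (SE 0.33, edgeR adjusted p = 0.19). In fibroblasts 4 genes were higher (29.4% of all genes), namely Cdc20, Kif23, Cdc6 and Tyms, and 15 were lower (32% of all genes). These fibroblast counts turned on the scaling and on single libraries: library size alone gave 7 higher and 5 lower and DESeq2 gave 6 and 3, the higher count was 1 without moderate 1 and 2 without moderate 2, and the lower count was 7 without sham 1, 8 without sham 2 and 6 without severe 2.

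Precursors of all 3 injured groups had higher levels of most of the 41 genes than sham precursors. Mki67 was at 45.2 and 47.8 CPM in sham 1 and 2, 249.8 and 208 in mild 1 and 2, 232 and 228 in moderate 1 and 2, and 108 and 98.3 in severe 1 and 2. Top2a was at 35.5 and 54.6 CPM in sham 1 and 2, 268 and 197 in mild 1 and 2, 265 and 349 in moderate 1 and 2, and 174 and 129 in severe 1 and 2. Every injured library was above both sham libraries for both genes, and the severe pair was the lowest of the injured for both. Mki67 rose by a log2 fold change of 2.33 (SE 0.27, edgeR adjusted p = 0.0034) in mild, 2.33 (SE 0.27, edgeR adjusted p = 0.0021) in moderate and 1.47 (SE 0.27, edgeR adjusted p = 0.0094) in severe, with edgeR's quasi-likelihood test over all 12109 genes. Top2a rose by 2.38 (SE 0.33, edgeR adjusted p = 0.0063), 2.77 (SE 0.33, edgeR adjusted p = 0.0021) and 2.05 (SE 0.33, edgeR adjusted p = 0.0057).

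The count of the 41 genes called higher was 32 in mild, 33 in moderate and 31 in severe, where 3.39%, 4.5% and 5.57% of all genes were called higher, and none was lower, also at an unadjusted p under 0.05 and with DESeq2, which called 34, 34 and 33 higher. All 41 fitted changes were above 0 in each group, with a median of 1.85, 2.03 and 1.81 beside -0.03, 0.02 and -0.08 over all genes. Of the 25 G2/M genes 23, 24 and 22 rose, and of the 15 S genes 9, 9 and 9. The 3 comparisons share the sham libraries. The genes called in all 3 groups numbered 28, those called in none were Pcna, Gins2, Mcm4, Tyms and Stmn1, and 8 were called in 1 or 2 groups.

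**Figure D3:**
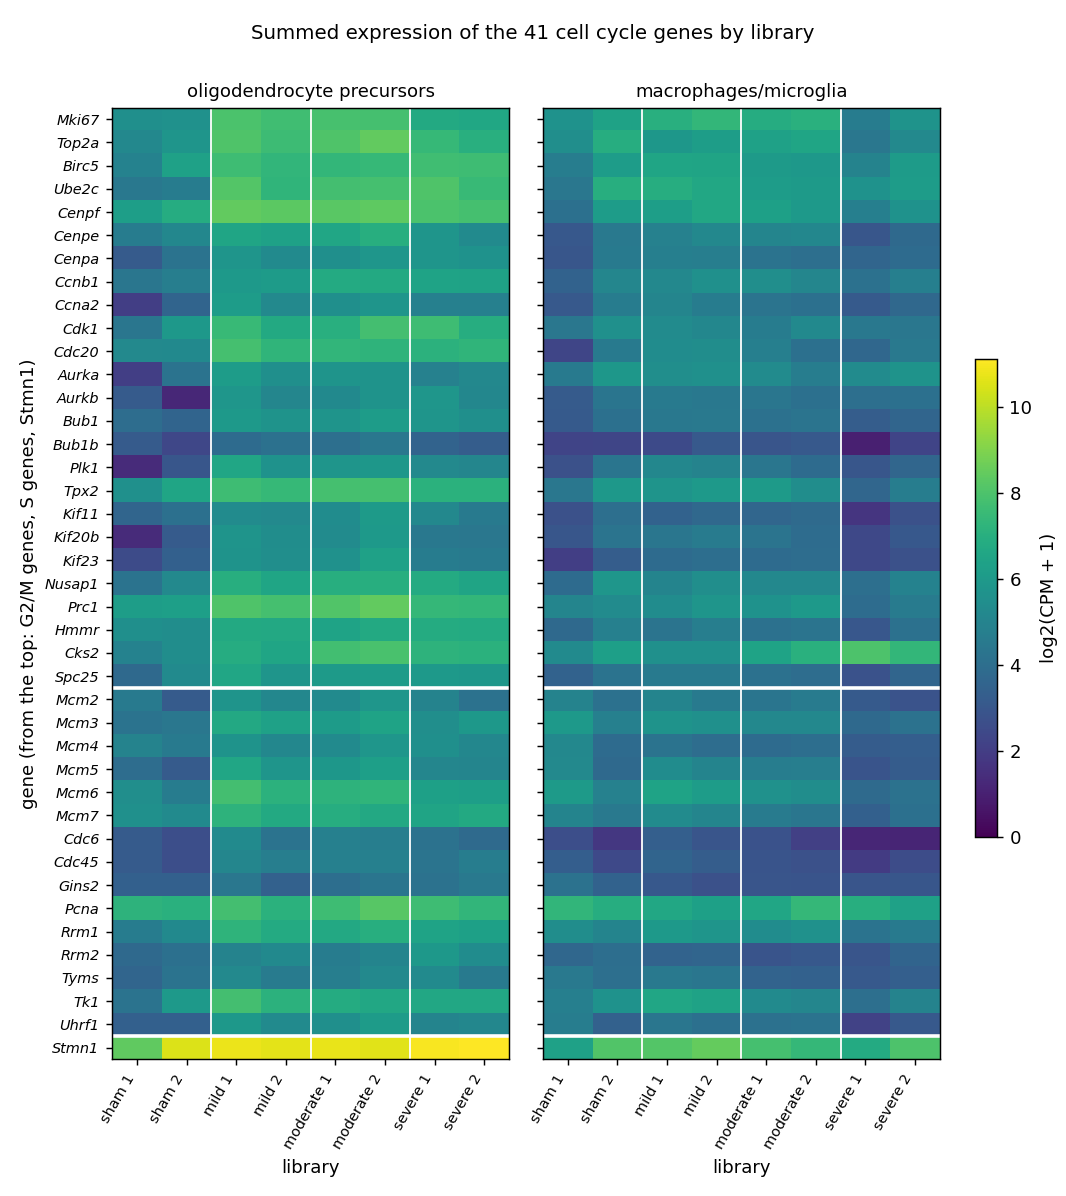
Level of the 41 genes (rows, G2/M genes above S genes and Stmn1) in each of the 8 libraries (columns) as log2(CPM + 1) in colour, for oligodendrocyte precursors on the left and macrophages/microglia on the right. In precursors the 2 sham columns are darker than the injured ones for nearly all rows, and in macrophages/microglia the severe 1 column is among the darkest.

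By role, genes that act at each step of mitosis rose. All 6 motor and spindle proteins rose in mild and moderate and 5 of 6 in severe, and Plk1, Aurka and Tpx2 (3 of 3), the cyclins with Cdk1 and Cks2 (4 of 4), the chromosomal passenger genes (2 of 2) and the partners of the anaphase-promoting complex (2 of 2) rose in all 3 groups. Ube2c, the ubiquitin-conjugating enzyme of that complex, was at 21.0 and 24.6 CPM in sham 1 and 2, 285 and 153 in mild 1 and 2, 222 and 230.0 in moderate 1 and 2, and 265 and 179 in severe 1 and 2. Its injured libraries were all above the sham ones, and in severe it rose by 3.59 (SE 0.40, edgeR adjusted p = 0.0013). Cdc20, whose promoter is printed above, was at 37.1 and 38.2 CPM in sham 1 and 2, 227 and 155 in mild 1 and 2, 159 and 149 in moderate 1 and 2, and 141 and 153 in severe 1 and 2, and Cks2 was at 29.1 and 42.3 CPM in sham 1 and 2, 116 and 91.3 in mild 1 and 2, 217 and 239.7 in moderate 1 and 2, and 146 and 138 in severe 1 and 2. For neither gene did an injured library reach down to the sham ones. Plk1, a mitotic kinase, had the largest fitted change, 4.04 (SE 0.55, edgeR adjusted p = 0.0063) in mild, but rested on 1 and 5 UMIs in sham 1 and 2. The kinetochore and checkpoint genes rose in 4, 5 and 4 of 6.

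A smaller part of the S genes was called, but their median change was not lower in every group. It was 2.07, 1.71 and 1.52 in mild, moderate and severe, beside 1.85, 2.19 and 2.15 for G2/M genes. Some genes of both sets had few UMIs in sham 1 and 2, such as Mcm5 (9 and 6), Cdc6 (5 and 4) and Aurkb (5 and 1). The part of low counts in the calls was not tested. Of the 7 licensing and helicase genes 5, 6 and 4 rose in mild, moderate and severe. Mcm6 was at 43.6 and 24.6 CPM in sham 1 and 2, 223 and 139 in mild 1 and 2, 144 and 154 in moderate 1 and 2, and 78.7 and 73.7 in severe 1 and 2. Mcm5 was at 14.5 and 8.19 CPM in sham 1 and 2, 94.1 and 55.4 in mild 1 and 2, 58.5 and 75.9 in moderate 1 and 2, and 33.3 and 32.4 in severe 1 and 2. Both were lowest in sham, highest in mild 1 and lower in the severe pair than in the other injured libraries, and Mcm5 rose by 2.77 (SE 0.41, edgeR adjusted p = 0.0077) in mild and 1.89 (SE 0.43, edgeR adjusted p = 0.02) in severe. Pcna was at 145 and 131 CPM in sham 1 and 2, 222 and 136 in mild 1 and 2, 203 and 301 in moderate 1 and 2, and 203 and 161 in severe 1 and 2. Its mild 2 library lay between the sham ones, and its changes of 0.41 (SE 0.30, edgeR adjusted p = 0.41) in mild and 0.72 (SE 0.31, edgeR adjusted p = 0.14) in severe were not called. Of the nucleotide supply genes 2, 1 and 3 of 4 rose, and of the pairs Cdc45 and Gins2 and Pcna and Uhrf1 1 of 2 each in every group. Stmn1 was at 341 and 1474 CPM in sham 1 and 2, 1797 and 1640.0 in mild 1 and 2, 1749 and 1574 in moderate 1 and 2, and 2085 and 2228 in severe 1 and 2. Only sham 1 stood far below the rest for Stmn1, which was not called in any group.

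The sham precursors were 81 and 79 cells, against 71 to 1159 in the injured libraries. Without sham 1 the genes called higher numbered 23, 27 and 24, and without sham 2 34, 33 and 35. Leaving out mild 1 took the mild count to 9, leaving out moderate 2 took the moderate count to 21 and leaving out severe 2 took the severe count to 8, while fitting only the 2 groups compared gave 0, 21 and 11. The shares of all genes called in the fits of this paragraph are not reported here. Keeping the cells called doublets gave 20, 21 and 18, and lifting the limits on UMIs and genes 15, 13 and 13. Set in each library, these limits removed 717 cells above them in sham 1 and 117 to 496 in the other libraries. Their part in the low sham values was not tested. Summed neutrophil markers were at 6658 CPM in the sham 1 precursors and between 72.6 and 499 CPM in the other 7 libraries. Summed markers of mature oligodendrocytes were at 6917 and 2318 CPM in sham against 1527 to 4219 in the injured libraries, and summed precursor markers at 6851 and 5188 against 1861 to 3546. Their part in the result was not tested. In these sums fewer cycling cells and less RNA per cycling cell cannot be told apart.

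Of the 94 further cell cycle genes matched, 92 were tested in precursors, and 39, 45 and 40 rose in mild, moderate and severe, with none lower in edgeR's test (2, 3 and 3 at an unadjusted p under 0.05). Genes of mitosis outside the list rose in 22, 25 and 20 of 36 and genes of replication in 11, 13 and 10 of 22. Those of chromatin and tubulin supply rose in 4, 4 and 7 of 9, and transcription factors of the cycle in 1, 1 and 0 of 7. Cyclins and kinases of G1 rose in 1 of 8 in each group and inhibitors and pocket proteins in 0, 1 and 2 of 10. Of all genes 3.39%, 4.5% and 5.57% were called higher, and these 2 roles hold too few genes to be set apart from that. Mcm10, which helps to start replication, had 0 UMIs in both sham libraries and was at 17.8 and 16.1 CPM in mild 1 and 2, 29.0 and 32.3 in moderate 1 and 2, and 15.1 and 11.6 in severe 1 and 2. That is at least 7.64-fold higher in mild, 13.8-fold in moderate and 6.02-fold in severe than the limit a count of 0 allows (3 counts over the pair, 2.22 CPM, counting error only). Clspn, a checkpoint adaptor of the fork, was also at 0 UMIs in both and at least 2.76-fold, 3.16-fold and 2.30-fold higher. Incenp, of the chromosomal passenger complex, had 2 and 1 UMIs in sham and was at 52.5 and 43.8 CPM in mild 1 and 2, 51.3 and 52.6 in moderate 1 and 2, and 18.2 and 13 in severe 1 and 2. Among the smallest changes called in mild were Ckap2, Lig1 and Tuba1b, at 1.04, 1.15 and 1.15.

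In macrophages/microglia few of these genes were called different from sham. Of the 41 genes 0 were called in mild, 0 in moderate and 1 in severe, where 6.06%, 1.39% and 7.24% of all genes were called in either direction. At an unadjusted p under 0.05, 7 were higher and 1 lower in mild, 1 and 3 in moderate, and 1 and 6 in severe, and DESeq2 called 2, 1 and 3. Mki67 was at 50.0 and 84.9 CPM in sham 1 and 2, 129.6 and 162 in mild 1 and 2, 118 and 133 in moderate 1 and 2, and 24.5 and 52.2 in severe 1 and 2. Its mild and moderate libraries were above both sham libraries and the severe 1 library below them. Top2a was at 44.3 and 119.9 CPM in sham 1 and 2, 58.4 and 72.1 in mild 1 and 2, 81.8 and 91.4 in moderate 1 and 2, and 20.5 and 36.6 in severe 1 and 2, with the injured libraries inside or below the range of the sham pair. The gene called was Cks2, at 39.0 and 76.0 CPM in sham 1 and 2, 47.2 and 47.5 in mild 1 and 2, 86.5 and 132 in moderate 1 and 2, and 256 and 165 in severe 1 and 2. Both severe libraries were above all others, and the change in severe was 2.29 (SE 0.42, edgeR adjusted p = 0.024). The median change of the 41 was 0.69 in mild, 0.13 in moderate and -0.25 in severe, beside -0.04, -0.02 and -0.11 over all genes. With library size alone the median over all genes in severe moved to -0.59, and 7 were called.

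The sham pair limits this comparison. Different clusters held most of these cells in each group, cluster 10 in sham (with cluster 4 in sham 1), 0, 1 and 4 in mild and moderate, and 7 and 13 in severe, and the part of this mix in the result was not tested. Without sham 2 the genes called numbered 18 in mild, 9 in moderate and 13 in severe, and without sham 1 they numbered 2, 0 and 2. The severe call was lost without mild 1, mild 2, severe 1 or severe 2. The counts with a library left out take either direction. The shares of all genes called in those fits are not reported here, so the counts are not set against them. Summed neutrophil markers were at 15705 CPM in the sham 1 macrophages/microglia and at 232 to 2316 CPM in the others, and their part in the result was not tested. Of the 93 further genes tested, Mybl2, Tubb4b and Incenp rose and Rb1 fell in mild, where 3.26% of all genes rose and 2.80% fell. None was called in moderate (9 higher and 9 lower at an unadjusted p under 0.05). In severe Cdkn1a and Tuba1c rose and Fbxo5 and Clspn fell, where 4.47% of all genes rose and 2.77% fell. These counts are not above the shares over all genes. Cdkn1a, the inhibitor p21, was at 56.9 and 32.5 CPM in sham 1 and 2, 26.8 and 27.7 in mild 1 and 2, 61.1 and 125 in moderate 1 and 2, and 214 and 140.0 in severe 1 and 2. It rose in severe by 2.49 (SE 0.39, edgeR adjusted p = 0.015).

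**Figure D4:**
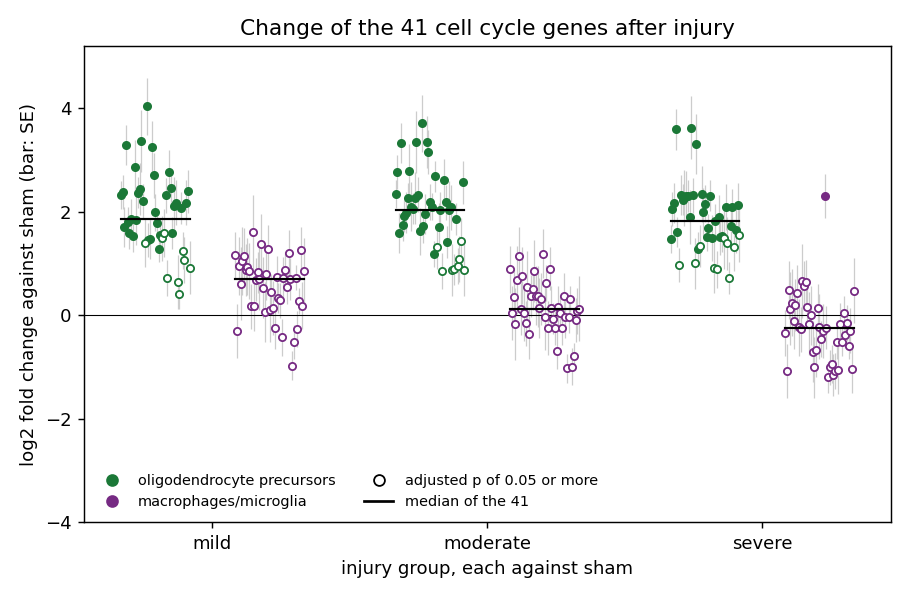
Fitted log2 fold change against sham of the 41 genes in oligodendrocyte precursors and macrophages/microglia, by injured group, 1 point a gene with its SE as a bar and the median as a line, filled where the adjusted p was under 0.05. In precursors all points lie above 0, with medians of 1.85, 2.03 and 1.81, and in macrophages/microglia the medians are 0.69, 0.13 and -0.25.

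The difference between the types was tested in 1 fit over both, with library as a block. The change against sham was larger in precursors for 3 of 41 genes in mild, 17 in moderate and 28 in severe, where 0.143%, 1.15% and 2.01% of all genes were, and was smaller for none (0, 0 and 0 at an unadjusted p under 0.05). In severe the difference in log2 fold change was 2.62 (SE 0.32, edgeR adjusted p = 0.0021) for Mcm6, 3.05 (SE 0.39, edgeR adjusted p = 0.0032) for Mcm5 and 3.12 (SE 0.48, edgeR adjusted p = 0.0068) for Top2a. For Mki67 it was 1.90 (SE 0.46, edgeR adjusted p = 0.039). For Cks2, which rose in severe macrophages/microglia and, by 2.31 (SE 0.30, edgeR adjusted p = 0.0032), in severe precursors, the difference was 0.06 (SE 0.34, edgeR adjusted p = 1). Without sham 1 the counts were 6, 20 and 27, where 0.764%, 1.35% and 1.98% of all genes were larger. Without sham 2 they were 5, 11 and 17, where 1.40%, 3.10% and 5.32% were.

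Among the 6 injured libraries, 4 replication licensing genes were called lower with drop height in macrophages/microglia and Cks2 was called higher. The slope was fitted on log2 of the height, which doubles from mild to moderate and from moderate to severe. Mcm6 was at 86.6 and 69.1 CPM in mild 1 and 2, 48.7 and 43.0 in moderate 1 and 2, and 13.2 and 17.3 in severe 1 and 2. Mcm5 was at 41.8 and 31.4 CPM in mild 1 and 2, 25.6 and 26 in moderate 1 and 2, and 6.36 and 8.55 in severe 1 and 2. Mcm3 was at 52.1 and 46.4 CPM in mild 1 and 2, 35.8 and 35.3 in moderate 1 and 2, and 13 and 17.4 in severe 1 and 2, and Cdc6 at 9.32 and 6.56 CPM in mild 1 and 2, 5.97 and 3.32 in moderate 1 and 2, and 1.27 and 1.25 in severe 1 and 2. For all 4 genes both severe libraries were below the other 4. Per doubling of height Mcm6 changed by -0.97 (SE 0.14, edgeR adjusted p = 0.018), Mcm5 by -0.94 (SE 0.17, edgeR adjusted p = 0.031), Mcm3 by -0.64 (SE 0.13, edgeR adjusted p = 0.045) and Cdc6 by -1.11 (SE 0.21, edgeR adjusted p = 0.039) on the log2 scale. These 4 of 41 were the genes called lower, where 0.528% of all genes were. Cks2 was the 1 called higher, where 1.77% were, with 1.27 (SE 0.15, edgeR adjusted p = 0.014). A count of 1 is too few to be set apart from that share. The mild and moderate values of Cks2 were 47.2 and 47.5 and 86.5 and 132 CPM against 256 and 165 in severe.

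The other genes pointed the same way in the main without being called. Of the 41 slopes 36 were below 0, with a median of -0.44 beside -0.01 over all genes, and 23 were lower and 1 higher at an unadjusted p under 0.05. The median was -0.55 for S genes and -0.40 for G2/M genes, and all 7 licensing genes and all 6 motor and spindle genes were below 0. Mki67, at -0.76 (SE 0.22, edgeR adjusted p = 0.12), missed the threshold. The clusters that held most of these cells also changed with height, from 4 and 0 in mild to 1 and 0 in moderate and 7 and 13 in severe, and their part in the slopes was not tested. The calls rested on single libraries, since none was lower without mild 1, mild 2 or severe 1 and 1 without severe 2, and Cks2 was lost without mild 2 or severe 1. Of the further genes Cdkn1a rose, by 1.55 (SE 0.19, edgeR adjusted p = 0.014), and Cdca2, Ccne1, Mybl2, Fen1 and Pold1 fell, the first with a slope of -1.09 (SE 0.21, edgeR adjusted p = 0.042) and the last of -0.80 (SE 0.16, edgeR adjusted p = 0.044). That is 1 higher and 5 lower of 93 further genes tested, where 1.77% and 0.528% of all genes were. Fen1 trims Okazaki fragments and Pold1 is the catalytic subunit of a replicative polymerase.

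**Figure D5:**
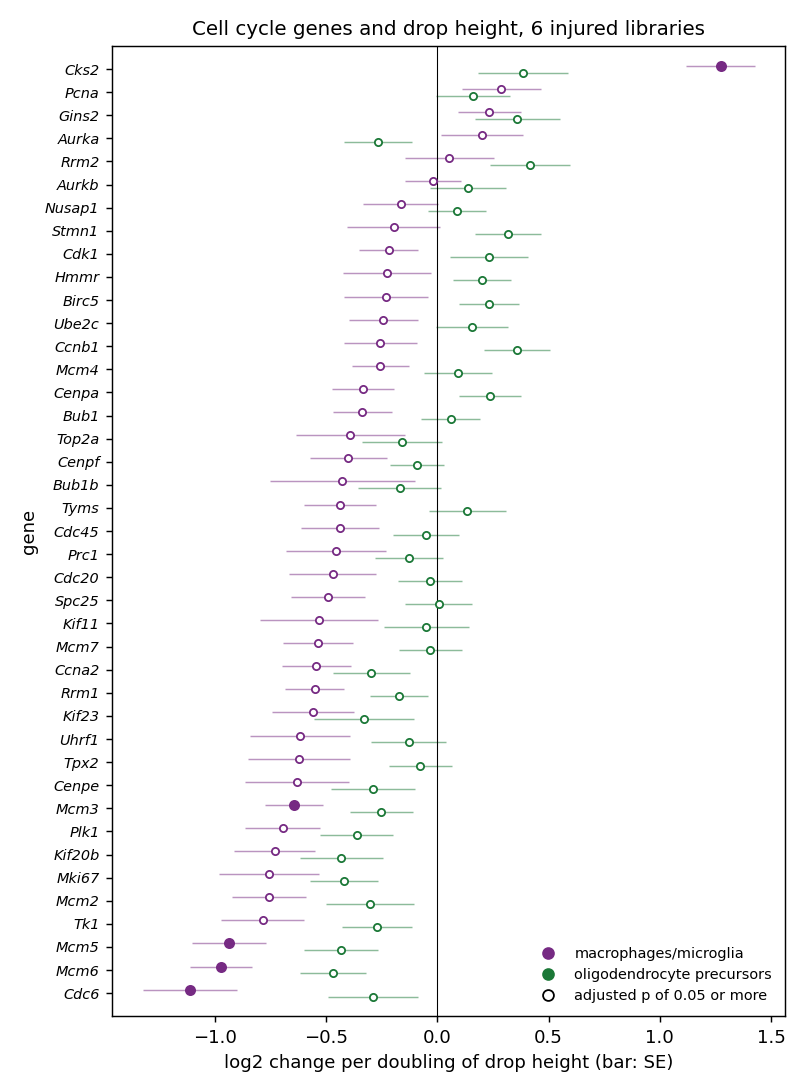
Slope of log2 CPM per doubling of drop height, with its SE, for each of the 41 genes (rows) in macrophages/microglia and in oligodendrocyte precursors, fitted over the 6 injured libraries and filled where the adjusted p was under 0.05. In macrophages/microglia 36 slopes are below 0 and Cks2, at 1.27, is the highest, and in precursors the median is -0.05.

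In precursors 0 of 41 slopes were called, where 0.911% of all genes were. The median was -0.05, 24 slopes were below 0, and 2 were higher and 5 lower at an unadjusted p under 0.05, with none called by DESeq2. The slopes of precursors and macrophages/microglia differed for 0 of 41 genes in a fit over both (0.0504% of all genes), so that the fall in macrophages/microglia was not shown to be particular to them. At an unadjusted p under 0.05, 24 were higher and 1 lower in precursors. The lowest adjusted p, for precursors minus macrophages/microglia, was that of Mcm7, with a difference of 0.57 (SE 0.11, edgeR adjusted p = 0.15), and that for Cks2 was -0.81 (SE 0.19, edgeR adjusted p = 0.19). In fibroblasts 0 of 41 slopes and 0% of all genes were called, with 8 lower and 0 higher at an unadjusted p under 0.05 and 2 called by DESeq2. In T cells/NK cells 10 of the genes passed the filter on low counts and 0 were called (0.473% of all genes), with 4 higher at an unadjusted p under 0.05 and 1 called by DESeq2, and 2 without moderate 2. The slope of Cks2 there was 1.14 (SE 0.25, edgeR adjusted p = 0.065). Endothelial cells were not fitted, since some injured libraries held fewer than 20.

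Positive cells were last set against the other cells of their type in the same libraries, to see what cycling cells carried beyond the 41 genes. The G2/M genes chose these cells, so their own differences are no result. The fit took 7 libraries of macrophages/microglia, all but sham 1, and 5 of precursors, with library as a block. Outside the 41 genes, 2223 genes (18.9%) were higher and 2923 (24.9%) lower in positive macrophages/microglia, and 1773 (15.6%) and 1945 (17.1%) in positive precursors. With library size alone the macrophage/microglia numbers were 4398 and 1444, so the split between higher and lower depended on the scaling.

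The S genes, which did not choose the cells, divided into those that rose with the G2/M genes and those that did not. In macrophages/microglia 12 of 15 were higher in positive cells, with Rrm2 at 2.85 (SE 0.19, edgeR adjusted p = 1.1e-07), Rrm1 at 1.95 (SE 0.10, edgeR adjusted p = 2e-08) and Tk1 at 1.86 (SE 0.13, edgeR adjusted p = 2.4e-07). The licensing genes Mcm6, at 0.13 (SE 0.09, edgeR adjusted p = 0.28), Mcm2 and Cdc6, at -0.29 (SE 0.23, edgeR adjusted p = 0.34), were not called. In precursors 11 of 15 were higher, with Rrm2 at 1.93 (SE 0.14, edgeR adjusted p = 9.5e-09), and again Mcm2, Mcm6 and Cdc6 were not called, nor was Gins2. All 4 nucleotide supply genes were among those called in both types. The UMIs of both sets come from the same cells, which were deeper than the others.

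Positive macrophages/microglia carried less of the genes of infiltrating and of lipid-laden macrophages. Of the list of infiltrating macrophage genes 0 were higher and 9 of 12 lower, with a median log2 fold change of -1.96, and of the lipid-laden list 0 were higher and 9 of 10 lower, with a median of -1.25, beside -0.04 over all genes. With library size alone 1 lipid-laden gene was higher and 9 lower. Of the microglia identity genes 5 were higher and 1 lower of 12, with a median of 0.38 (7 and 0 with library size alone). The number higher was 9 without sham 2 and 3 without any 1 of the 6 injured libraries. The precursor identity list had 1 of 4 higher. The oligodendrocyte differentiation list had 0 higher and 2 lower of 10, which turned to 1 higher and 0 lower with library size alone. The counts of the microglia, precursor and oligodendrocyte lists are too few to be set apart from the shares over all genes. Slpi, a secreted protease inhibitor, was at 68.8 ± 51.5 CPM against 1128 ± 699.9 (SD, n = 7 libraries) in the other cells, a log2 fold change of -4.29. The proteoglycan Vcan was at 8.96 ± 6.30 CPM against 127 ± 86.5 and fibronectin, Fn1, at 56.3 ± 38.6 CPM against 372 ± 252. These falls, and those of Apoc1 (-3.52), Vegfa (-3.17), Rgcc (-3.0), Napsa (-2.90), Serpinb6a (-2.88), LOC100911104 (-3.97) and RGD1559482 (-2.93), had the same direction in 7 of 7 libraries. Apoc1 and Rgcc were among the leading genes of cluster 1, with 0.339% positive cells. LOC100911104, Fn1, RGD1559482 and Vcan were among those of cluster 4, with 0.0206%. The contrast thus also compares clusters, and a difference within a cluster was not tested. The rises were led by the histones Hist1h2an, at 429 ± 204 CPM against 32.8 ± 15.3 (3.48), and Hist1h1b (3.20), with the kinetochore genes Knstrn (3.30) and Cenpw (2.96), the spindle gene Dlgap5 (2.91), Cdkn3 (2.51), Sapcd2 (2.71), Fam111a (2.66), AABR07000658.1 (3.32) and LOC100359539 (2.79).

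Positive precursors carried less of the genes of oligodendrocyte differentiation than the other precursors. Of 12 such genes 0 were higher and 11 lower, with a median of -1.37. The tight junction gene of myelin Cldn11 was at 144 ± 47.6 CPM against 370.1 ± 174 (SD, n = 5 libraries) in the other cells, a log2 fold change of -1.27, and Sirt2 was at 155 ± 42.1 CPM against 509 ± 261, a change of -1.57. Of the 7 precursor identity genes 2 were higher and 3 lower, Cspg4, Tnr and C1ql1, so the list did not move one way. In the macrophage lists too few genes were called to be set apart from the shares over all genes. These lists had 1 higher and 1 lower of 5 microglia genes, 0 and 1 of 9 infiltrating genes, and 1 and 3 of 10 lipid-laden genes. With the cells called doublets kept these numbers were 1 higher and 4 lower of 10, 0 and 8 of 11, and 0 and 8 of 10. The further falls were Tubb4a (-2.09), Fxyd7 (-1.65), Rnd2 (-1.63), Aldoc (-1.53), Mxd4 (-1.37), Aplp1 (-1.31) and Gpd1 (-1.26). The rises were led by the spindle pole gene Aspm, at 98.9 ± 17.9 CPM against 8.5 ± 3.96 (3.63), the cohesin protector Sgo2 (3.5) and the motors Kif20a (3.42) and Kifc1 (2.97), with Dlgap5, Pimreg, Knstrn, Hist1h1b, AABR07000658.1 and Pbk between 2.28 and 3.14. These rises, the further falls, Cldn11 and Sirt2 had the same direction in 5 of 5 libraries.

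Of the further cell cycle genes 78 were higher and 4 lower of 92 in positive macrophages/microglia, and 75 and 5 of 93 in positive precursors. Of all genes outside the 41, 18.9% and 24.9% were, and 15.6% and 17.1% in precursors. Mitosis genes rose in 36 of 36 and 35 of 36, and replication genes in 20 of 21 and 20 of 22. The G2/M genes chose the cells, so the rise of mitosis genes is not independent of them. G1 cyclins and kinases were higher in 4 and lower in 0 of 8, and 3 and 1 in precursors. Inhibitors and pocket proteins were higher in 4 and lower in 3 of 10, and 3 and 3 in precursors. The motors Kif2c and Kif4a were among the 3 largest rises in both types, with Ect2 in macrophages/microglia and Anln in precursors, both of which act in cytokinesis. The falls in macrophages/microglia included Gadd45a and Cdkn1a, which respond to DNA damage, and E2f3. In precursors Cdkn1c, the inhibitor p57, had the largest fall, -2.33 (SE 0.14, edgeR adjusted p = 5.8e-10), followed by Ccnd2 and Gadd45a.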

How the data were processed

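Cells of a spinal cord segment around the lesion were profiled in 8 libraries, 2 for each of sham, mild, moderate and severe, with drop heights of 12.5, 25 and 50 mm. Per the file headers, the authors made the deposited UMI counts with Cell Ranger 5.0.1, aligned to Rnor_6.0, as raw counts per gene and barcode, with 31482153 to 131045446 UMIs a library. From these, barcodes over 10% mitochondrial UMIs were removed, then the 7.7% with the highest Scrublet score in each library as doublets, then cells outside the mean ± 2 SD of UMIs or genes. The study names no doublet tool, so other cells may be removed here. Clusters came from Seurat 5.3.0 (4000 variable genes, 15 principal components, resolution 0.4) without the 41 genes and the 94 further cell cycle genes, and were named from 167 fixed marker genes. The rule that turned markers into names was settled after the clusters were seen, and clusters that did not meet it stayed unnamed.

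Counts were summed per type and library with at least 20 cells, and tested with edgeR 4.0.16 in R 4.3.3 (quasi-likelihood, TMM, filterByExpr, Benjamini-Hochberg over all genes, two-sided, threshold 0.05). Each SE printed is the absolute log2 fold change divided by the square root of the test's F statistic, not a separate estimate. DESeq2 1.42.0 was an alternative. Others were library size alone, no filter on low counts, at least 100 cells, other clustering, doublets kept, no UMI or gene limits, thinning to 500 UMIs or none, at least 2 G2/M genes, each library left out, and the replicate number as a block. Same-numbered libraries deviated together with correlations of -0.32 to 0.28, so the numbers were not taken as pairs. Each test was tested on simulated counts with 200 changed genes. For severe against sham it recovered 18% of genes changed by a log2 fold of 1 and 90% of those changed by 2 in oligodendrocyte precursors (11842 genes), and 7% and 63% in macrophages/microglia (12997 genes).

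The genes, lists and tests were chosen with earlier results of these data known, and the tests of a difference between oligodendrocyte precursors and macrophages/microglia after the data were seen. Named were all 41 genes, the 3 largest and 3 smallest called changes among the further genes, and, for positive against other cells, the 10 largest rises and 10 largest falls outside both lists that were called, had 1 direction in every library and averaged 50 CPM or more. Ccnb2 and 2 further genes were not matched, and some genes that met the rule are not reported here. Limits from counts of 0 cover counting error only. Promoters came from RefSeq's GRCr8 table.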

Additional observations from a re-analysis of the deposited data

Results flagged for a closer look

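The change against sham was larger in oligodendrocyte precursors than in macrophages/microglia, in a test of the difference itself, for 3 of the 41 genes in mild, 17 in moderate and 28 in severe. None was smaller. Of all genes 0.143%, 1.15% and 2.01% had a larger change in precursors. Without sham 1 the counts of the 41 were 6, 20 and 27, beside 0.764%, 1.35% and 1.98% of all genes. Without sham 2 they were 5, 11 and 17, beside 1.40%, 3.10% and 5.32%.

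Some cells outside the comparisons also carried G2/M genes, well above the 0.308% of mature oligodendrocytes. In a cluster of 1993 cells left unnamed, with a median of 1104 UMIs, 260 of the 1101 cells with at least 1000 UMIs were G2/M-positive (23.6%). Severe 2 gave 1069 cells of this cluster (53.6%). Its best-matching list was macrophages/microglia, with 8 of 14 markers detected but none among its leading 10 genes. These cells are missing from the macrophages/microglia shares, sums and slopes, and their part in the severe values was not tested. Of macrophages/microglia above the UMI or gene limits, which were left out, 296 of 970 were positive (30.5%) at a median of 34560 UMIs before thinning, beside 10.1% of those within the limits. Of oligodendrocyte precursors above the limits 160 of 258 were positive (62.0%) at a median of 30371.5 UMIs, beside 26.4% within them. Among cells called doublets the shares were 9.51% in macrophages/microglia and 19.7% in precursors.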

How the results depend on the processing

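Fewer genes were called higher in precursors against sham in some alternatives: 20, 21 and 18 in mild, moderate and severe with doublets kept, 15, 13 and 13 with no UMI and gene limits, and 0, 21 and 11 with only the 2 groups compared, where fewer libraries enter the fit. With single libraries left out the counts were 9 to 34, 21 to 33 and 8 to 35. Pcna in mild precursors reversed to -0.38 with no UMI and gene limits. In macrophages/microglia against sham, mild gave 2 with DESeq2 and 6 with no filter on low counts (0 to 18 with a library left out). Moderate gave 1 with DESeq2, 1 with no UMI and gene limits and 2 with no filter (0 to 9), and severe 3, 4 and 4, with 7 under library size alone, 2 at resolution 0.8 and 0 with only the 2 groups compared (0 to 13). Slopes called lower in macrophages/microglia numbered 13 with DESeq2, 7 with no limits, 8 with no filter, 9 at resolution 0.8 and 2 with the replicate block (0 to 6), and those called higher 0 to 1. The slope gave 1 in T cells/NK cells with DESeq2, 1 with doublets kept and 2 with no filter (0 to 2), 2 in fibroblasts with DESeq2 (0 to 0), and 0 to 0 in precursors. The difference in change between precursors and macrophages/microglia was called for 5 to 6, 11 to 20 and 17 to 27 genes without a sham library. Of all genes 0.764% to 1.40%, 1.35% to 3.10% and 1.98% to 5.32% were called higher in precursors there. For the other counts of this paragraph the shares of all genes called are not reported here. The replicate block gave 30, 32 and 28 genes in precursors. Apart from the slopes called lower in macrophages/microglia, it changed no other count by over 1.5 times. 

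Between types, precursors were higher in 28 genes with DESeq2, 38 with library size alone, 29 with at least 100 cells and 29 with no filter (16 to 32). The shares of all genes called higher in these settings are not reported here. Fibroblasts were higher in 7 with library size alone (1 to 5) and lower in 3 with DESeq2, 9 with at least 100 cells, 5 with library size alone, 2 with no limits and 9 with no filter (6 to 16). T cells/NK cells were lower in 16 with DESeq2 (20 to 26) and mature oligodendrocytes in 38 to 38. In positive macrophages/microglia 4398 genes were higher and 1444 lower with library size alone (1819 to 2638 and 2466 to 2987), and in positive precursors 1091 were lower with DESeq2 (1397 to 1773 higher and 1509 to 1945 lower).

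The mean share of positive cells was 49.5% in precursors, 35.6% in astrocytes, 29.6% in macrophages/microglia and 28.9% in fibroblasts without thinning. At 500 UMIs it was 12.3%, 8.66% and 4.01% in the first 3, with at least 2 genes 21.5% in astrocytes and 11% in macrophages/microglia, and with no limits 10.3% in macrophages/microglia. Left-out libraries gave 20% to 23.7% in precursors, 13.5% to 16.7% in astrocytes, 8.52% to 11.9% in fibroblasts and 6.90% to 7.99% in macrophages/microglia. The ratio of S to G2/M sums in astrocytes was 0.713 with the cell cycle genes kept in the clustering and 0.375 with no limits. Left-out libraries gave 0.384 to 0.437 in precursors, 0.457 to 0.517 in astrocytes, 0.477 to 0.710 in fibroblasts and 0.42 to 0.577 in macrophages/microglia. Of the values for single named genes 429 of those recomputed kept their direction and call, 57 lost the call and 8 gained it. Where no construction of the alternative shows it, the cause was not tested. With 2 libraries a group and 71 to 81 precursors in the smallest libraries, small changes were not detectable.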
